A study of Mus musculus with 8 samples.

Results

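Crocidolite and amosite, both amphibole asbestoses, were compared in mature 3T3-L1 adipocytes by setting the 2 arrays of crocidolite-treated cells against the 2 arrays of amosite-treated cells. These are 4 of the 8 arrays of the series. The other 4 hold cells given saline (2 arrays) and cells given chrysotile, a serpentine asbestos (2 arrays). Members were taken by treatment label alone, and every non-control probe entered the comparison. 3T3-L1 is a clonal line of mouse embryo fibroblasts that turns into lipid-filled adipocytes in culture, so the samples hold 1 cell line without the vessels, immune cells or nerves of fat tissue. Each fibre was given at 10 mg/cm2, as the labels state it, and RNA was taken after 72 h in all 4 groups. The unit of the dose could not be checked here. The labels number the arrays of a group 1 and 2 without saying whether they came from separate cultures, so the tests rest on a spread between arrays that may be technical only.

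Amphiboles are chain silicates that break into straight, needle-like fibres rich in iron. Crocidolite is the fibrous form of the sodium iron mineral riebeckite, and amosite is the fibrous form of the iron magnesium mineral grunerite. Long, durable fibres of this kind are taken up incompletely by cells and are known to provoke inflammation in the linings of the lung and the body cavities. Adipocytes make adipokines, the hormones of fat, and also secrete a large set of acute phase proteins and chemokines when they meet inflammatory cytokines. In that response, cytokines of the interleukin-6 family act through STAT3 and the C/EBP factors, interleukin-1 and tumour necrosis factor act through NF-kB, and interferons act in part through factors of the IRF family.

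The stretches before the start sites of 7 genes are shown because these genes are among those described in most detail below. They were chosen first by their values and then because their stretches hold a C/EBP match or an interferon element. Each is the 250 bases before the annotated start, read 5′ to 3′ on the gene's own strand from RefSeq sequence of build GRCm38.p6, in lower case. Capitals mark matches, on either strand, to a C/EBP motif (TTGCNNAA), an AP-1 motif (TGANTCA), a STAT motif (TTCNNNGAA), the interferon-stimulated response element or the kappa-B consensus, searched for all 5 in each stretch. Matches of different motifs may overlap one another.
Saa3 (chr7:46715677-46715926, minus strand): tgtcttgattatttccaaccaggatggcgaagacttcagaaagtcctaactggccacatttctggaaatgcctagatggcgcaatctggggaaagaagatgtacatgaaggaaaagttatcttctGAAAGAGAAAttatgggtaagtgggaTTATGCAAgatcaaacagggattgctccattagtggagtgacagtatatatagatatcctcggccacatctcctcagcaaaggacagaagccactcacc
Lcn2 (chr2:32387740-32387989, minus strand): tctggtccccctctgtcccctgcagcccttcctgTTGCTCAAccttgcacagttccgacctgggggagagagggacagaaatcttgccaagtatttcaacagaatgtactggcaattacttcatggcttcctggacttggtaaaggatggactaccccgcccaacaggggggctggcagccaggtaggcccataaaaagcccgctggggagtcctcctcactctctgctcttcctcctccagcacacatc
Slpi (chr2:164356508-164356757, minus strand): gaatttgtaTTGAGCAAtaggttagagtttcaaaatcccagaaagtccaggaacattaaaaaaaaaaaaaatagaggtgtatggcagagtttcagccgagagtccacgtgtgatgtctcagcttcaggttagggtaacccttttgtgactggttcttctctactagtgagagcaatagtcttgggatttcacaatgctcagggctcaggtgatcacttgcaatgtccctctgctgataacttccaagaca
Serpina3f (chr12:104214294-104214543, plus strand): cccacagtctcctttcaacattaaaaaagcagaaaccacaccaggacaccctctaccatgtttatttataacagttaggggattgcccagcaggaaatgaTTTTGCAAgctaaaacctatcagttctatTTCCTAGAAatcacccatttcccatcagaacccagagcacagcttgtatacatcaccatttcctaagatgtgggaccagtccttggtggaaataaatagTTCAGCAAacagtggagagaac
Sbsn (chr7:30751221-30751470, plus strand): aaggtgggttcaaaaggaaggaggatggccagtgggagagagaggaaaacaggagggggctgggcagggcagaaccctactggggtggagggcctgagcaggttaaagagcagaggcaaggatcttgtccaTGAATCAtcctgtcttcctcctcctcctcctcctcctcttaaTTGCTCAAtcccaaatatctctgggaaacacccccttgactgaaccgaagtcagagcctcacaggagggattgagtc
Dmkn (chr7:30763506-30763755, plus strand): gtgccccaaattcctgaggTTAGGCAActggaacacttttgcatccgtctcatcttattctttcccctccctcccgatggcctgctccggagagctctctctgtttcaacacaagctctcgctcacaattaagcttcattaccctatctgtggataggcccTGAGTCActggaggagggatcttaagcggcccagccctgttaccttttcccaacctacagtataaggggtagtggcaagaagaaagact
Oas3 (chr5:120777660-120777909, minus strand): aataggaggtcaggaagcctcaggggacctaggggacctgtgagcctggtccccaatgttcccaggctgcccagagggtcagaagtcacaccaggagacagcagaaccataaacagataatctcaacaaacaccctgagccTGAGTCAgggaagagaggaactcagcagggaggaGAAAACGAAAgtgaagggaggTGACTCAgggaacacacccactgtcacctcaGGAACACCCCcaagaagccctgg
Of 17 genes looked up for their values, 13 were found in the promoter table, and 6 of the 13 hold a C/EBP match. Those are the first 6 stretches, among which the match of Saa3 lies at positions -99 to -92 from the start, that of Sbsn at -77 to -70 and those of Serpina3f at -150 to -143 and -22 to -15. Over the same 250 bases of 27025 promoters, 9.55% hold the C/EBP motif, 6.87% the AP-1 motif, 7.18% the STAT motif, 3.04% the interferon element and 7.01% the kappa-B consensus. Sbsn and Dmkn also hold AP-1 matches, at -119 to -113 and at -89 to -83. Saa3 holds an interferon element at -125 to -116. The stretch of Oas3 holds one at -75 to -66, AP-1 matches at -109 to -103 and -54 to -48, and a kappa-B match at -23 to -14. Since both the values and the matches decided which stretches are printed, the matches in the 7 say nothing beyond their letters, and no factor's binding was measured. Among the 6 found and not printed, Chil1 holds a kappa-B match at -179 to -170, and Tfpi2, Ccl8, Runx1, Osmr and Thrsp hold none of the 5 motifs in this window, which says nothing of the factors.

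On each array between 56.2% and 62.8% of 55681 non-control probes were well above background, and no spot was saturated. The 75th percentile of the processed intensity, on which each array was centred, was 453.4 and 442.4 with crocidolite and 400.7 and 396.3 with amosite. All 8 arrays lay on 1 slide, where each group filled a row of its own and the replicate number was the column, so the row and the group cannot be told apart. Levels below are log2 intensities minus that percentile, a difference is the mean of crocidolite minus the mean of amosite ± its SE from limma (n = 2 arrays per group, with 1 spread estimated from all 8), and a level cannot be compared between probes of different genes. All 10 adipocyte markers examined, such as Adipoq, Fabp4, Plin1 and Pparg, were above background on all 4 arrays, and their differences lay between -0.22 and 0.09. All 6 preadipocyte or fibroblast markers were above background on all 4 arrays as well, with differences from -0.37 (Dlk1) to 0.79 (Ly6a, higher without overlap). In a bulk sample, fewer cells of a type and less RNA per cell cannot be told apart.

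No probe passed an adjusted p of 0.05 between crocidolite and amosite by limma (0 of 55672, or 0%), and the smallest adjusted p was 0.917. At an unadjusted p under 0.05 by limma there were 2119 probes, 765 higher and 1354 lower with crocidolite. That is less than a share of 0.05 of the 55672 probes, the share reached on average if no probe differed. Among the 15026 measured genes, defined below, 2.28% were higher and 1.52% lower at that p. The calls were also 0 under the other scalings, filters and priors tried with all 4 groups and under the replicate block. Leaving out the crocidolite array numbered 1 gave 6 calls and leaving out the one numbered 2 gave 17, none of them a gene described below. The pooled spread takes in chrysotile, whose 2 arrays stood far apart in many of these genes. Over all genes the 2 saline arrays stood further apart than those of chrysotile. With the chrysotile arrays left out and a trended, robust prior, a setting added after the data were seen, Sbsn and Dmkn were called (adjusted p = 0.0144 and 0.0322). With 1 probe per gene as well, 9 genes were called, all of them higher with crocidolite, among them Sbsn, Dmkn, Chil1, Osmr, Slpi, Runx1, Ccl6 and Ccn5. In the fit of all 4 groups no gene described below had an adjusted p under 0.917, so none of the differences that follow is a call, and their SEs show how wide the error is.

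Sizes and directions were therefore described over 15026 measured genes, each taken by its brightest probe and above background on both arrays of crocidolite or of amosite. Of these, 129 (0.859%) stood at least 2-fold higher with crocidolite and 94 (0.626%) at least 2-fold lower, with both crocidolite arrays on the same side of both amosite arrays. The 2 sides differed in how well they were measured, since 98 of the 129 higher genes but only 29 of the 94 lower genes were above background on all 4 arrays. In the 98 well-measured higher genes the median difference from saline was 1.43 with crocidolite and 0.03 with amosite. In 91 of them both amosite arrays lay within 1 log2 unit of the mean of saline. The share of all measured genes within that limit was not counted, so the 91 show nothing particular to these genes. In the 29 lower genes the same medians were -1.02 and 0.12. Both differences share the 2 saline arrays. The median difference between the 2 arrays of a group in the 98 genes was 0.29 for crocidolite, 0.41 for amosite and 1.03 for chrysotile. The choice of genes without overlap limits that gap for crocidolite and amosite but not for chrysotile. Over 22910 genes the SD of the difference between the 2 arrays was 0.397 for crocidolite, 0.375 for amosite, 0.434 for chrysotile and 0.543 for saline.

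**Figure D1:**
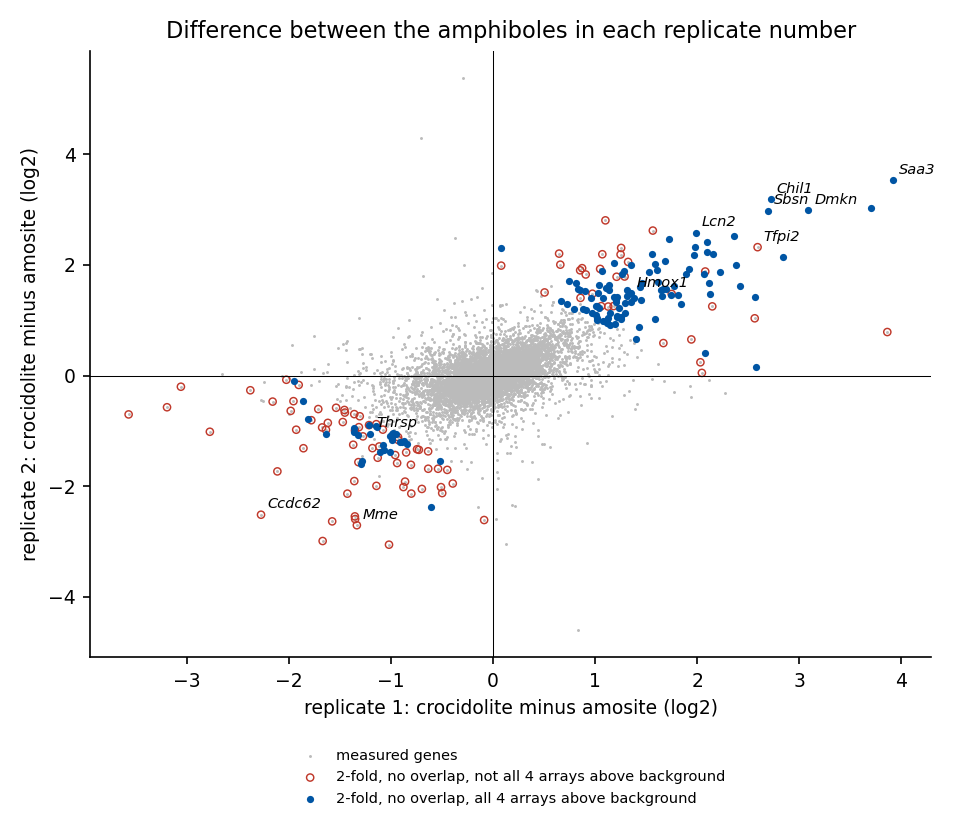
Difference between crocidolite and amosite (log2) of each measured gene, arrays numbered 1 on the horizontal axis and arrays numbered 2 on the vertical axis. Filled points are the genes at least 2-fold apart without overlap and above background on all 4 arrays (98 higher, 29 lower), open points those not above background on all 4 (31 higher, 65 lower), and the filled points lie mostly at the upper right.

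Acute phase and complement genes were the group with the largest single differences. Of the 22 genes listed, all measured, 21 stood higher with crocidolite, 17 of them on both arrays without overlap and 1 lower without overlap, while 21.4% of all measured genes were higher and 18.1% lower in that sense. The median difference was 0.63, against 0.01 over all measured genes, and the medians against saline were 0.74 for crocidolite and 0.13 for amosite. With normexp background correction the median between the amphiboles was 0.39. At an unadjusted p under 0.05, 7 of the 22 were higher and 1 lower, where the share of measured genes is 2.28% and 1.52%. By direction alone, 53.3% of all measured genes stood above 0 and 46.7% below 0. These shares of all measured genes are the ones to set beside the counts of every list below.

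Saa3, which encodes a serum amyloid A protein made by fat cells and macrophages, had its probe at chr7:53970389-53970448 (mm9) and the largest difference of all measured genes. It stood at 1.00 and 1.03 with crocidolite, -2.92 and -2.50 with amosite, -3.97 and -2.87 with saline and -0.96 and 2.38 with chrysotile. The crocidolite arrays lay close together and far above the amosite and saline arrays, while the 2 chrysotile arrays fell on either side of them. The difference was 3.72 ± 1.07 (13.2-fold). The related Saa1 was higher by 0.49 ± 0.39. Saa2 was above background on both crocidolite arrays and on no amosite or saline array, and its fold over amosite is a bound of at least 2.42, computed against the lowest signal called above background on the amosite arrays; bounds below are computed in the same way. The Saa genes are similar in sequence, and signal shared between their probes was not tested.

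Lcn2 encodes lipocalin-2, an adipokine that binds iron-carrying siderophores. Its probe at chr2:32240199-32240258 (mm9) stood at 1.42 and 1.17 with crocidolite, -0.56 and -1.42 with amosite and -1.09 and -1.35 with saline, a difference of 2.29 ± 0.66 between the amphiboles. C4b, a component of the classical complement pathway (probe chr17:34865328-34865387, mm9), stood at 7.40 and 7.80 with crocidolite, 5.02 and 5.81 with amosite and 4.83 and 5.45 with saline. The amosite arrays of both genes lay near saline, and no crocidolite array overlapped them. C4b differed by 2.18 ± 0.55.

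Haptoglobin, which captures free haemoglobin and is an adipocyte product, was named after its values were seen. Hp stood at 8.14 and 8.96 with crocidolite and 4.44 and 5.93 with amosite, a difference of 3.37 ± 1.38, but saline itself spread from 4.15 to 5.89. In each group the array numbered 1 was the lower, and the amphiboles differed by 3.70 between the arrays numbered 1 and by 3.03 between those numbered 2. The serine protease inhibitors of the Serpina3 cluster on chromosome 12 stood the same way, by 2.50 ± 0.51 for Serpina3f, 1.89 ± 0.60 for Serpina3g and 1.34 ± 0.76 for Serpina3n. Serpina3f stood at -0.72 and -1.06 with crocidolite and at -3.56 and -3.21 with amosite. Its other probe differed by only 0.43, and since these genes are near-identical copies, which of them gave the signal is uncertain. Complement factor B (Cfb) and C3, the central complement protein, were higher by 1.63 ± 0.73 and 0.63 ± 0.31. Orm3 stood apart at -1.02 ± 0.32, while Orm1 and Orm2, similar genes for the same acute phase protein, orosomucoid, overlapped between the fibres.

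**Figure D2:**
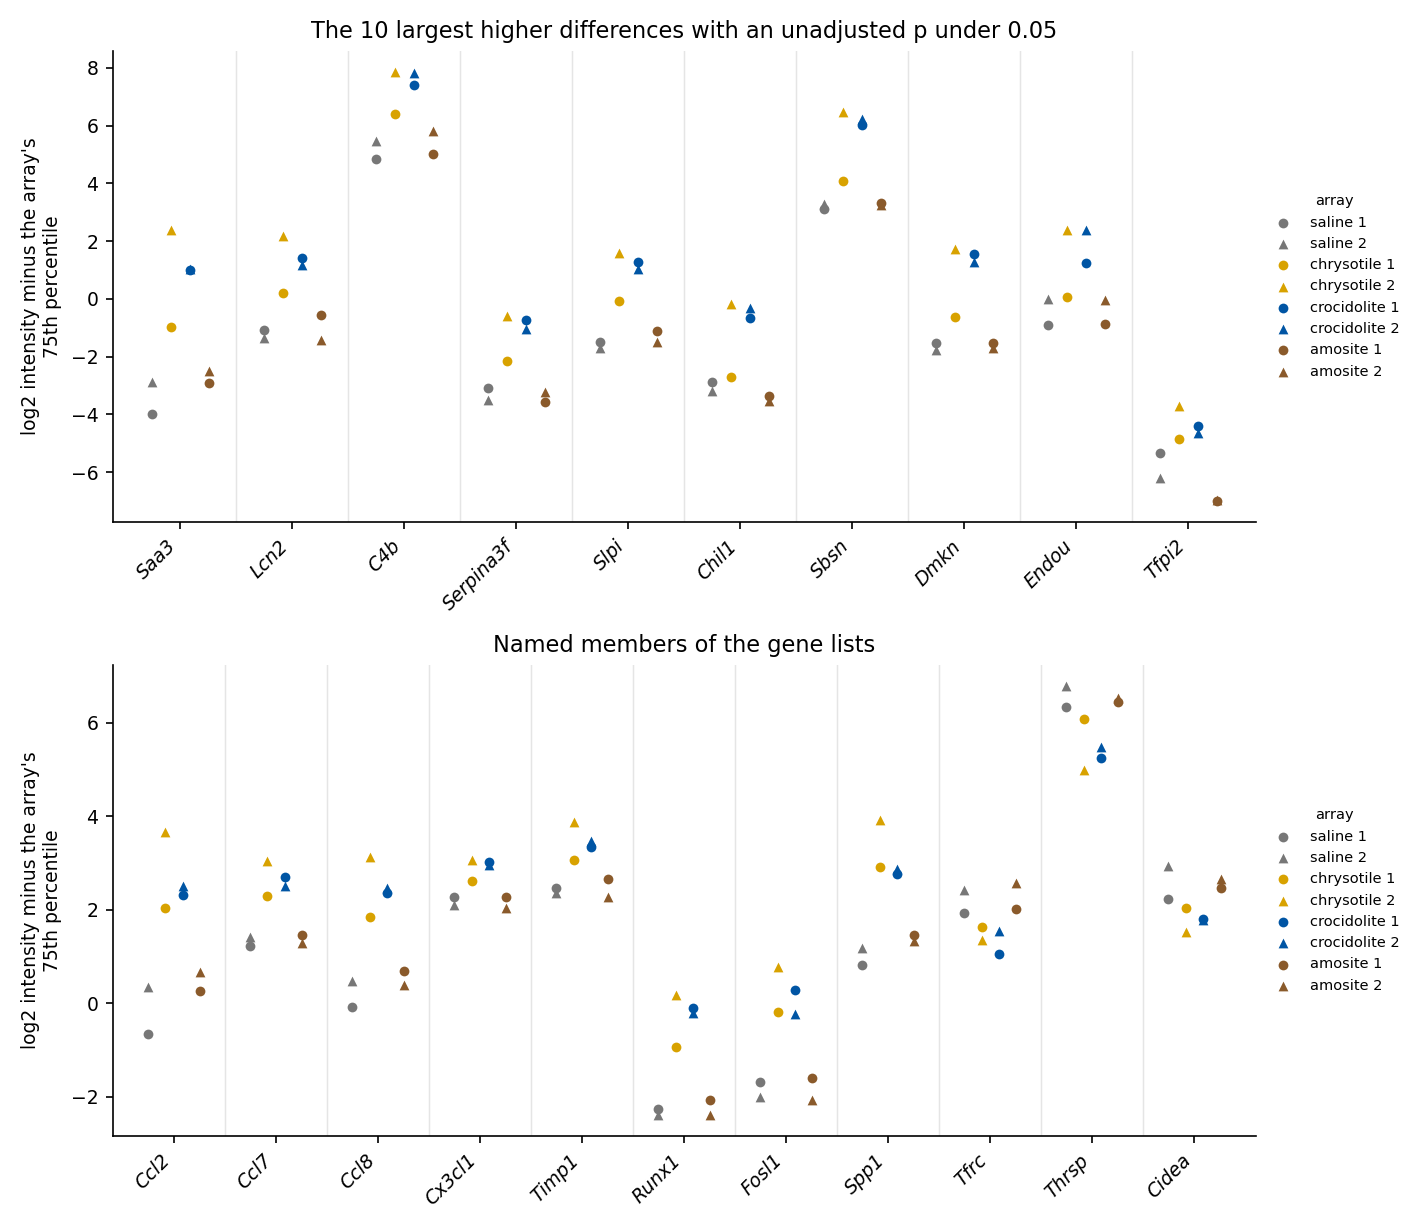
Log2 intensity minus the 75th percentile of the array, on the vertical axis, for each of the 8 arrays; circles are arrays numbered 1 and triangles arrays numbered 2, coloured by group. The upper panel holds the 10 largest higher differences among genes with an unadjusted p under 0.05 and no overlap, which leaves out Hp (3.37) and takes in Tfpi2, not well above background with amosite. There both crocidolite arrays lie above both amosite arrays, for Saa3 at 1.00 and 1.03 against -2.92 and -2.50; in the lower panel Tfrc, Thrsp and Cidea lie the other way.

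Sbsn and Dmkn, on none of the gene lists, were among the largest differences. Sbsn (suprabasin) and Dmkn (dermokine) are neighbours in a cluster of epidermal secreted proteins on chromosome 7, with probes at chr7:31540994-31541053 and chr7:31566013-31566072 (mm9). Sbsn stood at 6.03 and 6.22 with crocidolite, 3.34 and 3.24 with amosite, 3.10 and 3.28 with saline and 4.09 and 6.46 with chrysotile. Dmkn stood at 1.56 and 1.28 with crocidolite, -1.53 and -1.71 with amosite, -1.54 and -1.79 with saline and -0.64 and 1.72 with chrysotile. In both genes amosite lay next to saline in each number, and crocidolite was far above. The differences between the amphiboles were 2.84 ± 0.72 for Sbsn and 3.04 ± 0.72 for Dmkn, and the other probe of Dmkn gave 2.98. When the chrysotile arrays were left out the SE of Sbsn was 0.16.

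Slpi, the secretory leukocyte protease inhibitor, stood at 1.26 and 1.04 with crocidolite, -1.10 and -1.48 with amosite and -1.48 and -1.70 with saline, a difference of 2.44 ± 0.53. Chil1, a chitinase-like secreted protein of inflamed tissue, stood at -0.65 and -0.33 with crocidolite and at -3.37 and -3.52 with amosite (2.96 ± 0.78). Amosite lay below both saline arrays (-2.87 and -3.19) and crocidolite above both. Endou, an endoribonuclease specific for uridine, differed by 2.25 ± 0.86. Tfpi2, an inhibitor of serine proteases in the matrix, was above background with crocidolite alone of the amphiboles, at -4.40 and -4.64, and not well above background with amosite. Neither saline array was above background. Its difference is a bound, at least 1.20-fold.

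Chemokines and cytokines formed the list with the highest median. Of 23 genes 15 were measured, 13 of them higher with crocidolite without overlap and 1 (Cxcl2, not well above background with crocidolite) lower without overlap. The median difference was 1.14, and the medians against saline were 0.81 for crocidolite and 0.07 for amosite. At an unadjusted p under 0.05, 10 were higher and 1 lower. Tumour necrosis factor and both interleukin-1 genes (Tnf, Il1a, Il1b) were not among the measured genes.

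The monocyte attractants Ccl2, Ccl7 and Ccl8 lie in 1 cluster on chromosome 11. Ccl2 (probe chr11:81850650-81850709, mm9) stood at 2.33 and 2.51 with crocidolite, 0.26 and 0.68 with amosite and -0.66 and 0.35 with saline, a difference of 1.95 ± 0.60. Ccl8 stood at 2.37 and 2.46 with crocidolite, 0.68 and 0.39 with amosite and -0.08 and 0.49 with saline, a difference of 1.88 ± 0.45. Ccl7 stood at 2.71 and 2.52 with crocidolite, 1.47 and 1.30 with amosite and 1.22 and 1.42 with saline, a difference of 1.23 ± 0.27. In each of these 3 genes the crocidolite arrays lay close together and above every amosite and saline array. Cx3cl1, a membrane-bound chemokine, was higher by 0.84 ± 0.20. The neutrophil attractants Cxcl1 and Cxcl5 were each higher by 1.14, with SEs of 0.44 and 0.34. Cxcl10, which interferons induce, was higher by 1.57 ± 0.53 and lay with amosite at -0.81 and -0.19 against -0.12 and 0.64 with saline. Interleukin-6 itself (Il6) stood at -0.78 and -0.47 with crocidolite and -1.60 and -1.15 with amosite (0.75 ± 0.56), and saline spread from -1.95 to -0.63.

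The summed intensity of 8 macrophage markers, scaled to the 75th percentile of each array, was 60.1 and 67.6 with crocidolite, 61.3 and 65.5 with amosite and 65.8 and 73.0 with saline. Most of that sum is the probe taken for Itgam, and without it the sum of the other 7 was 6.70 and 7.70 with crocidolite, 5.26 and 7.24 with amosite and 8.41 and 8.08 with saline. Such a sum weighs each marker by the brightness of its probe. Lyz2 and C1qa were above background on none of the 4 arrays, while 4 markers (Cd68, Csf1r, Mpeg1 and Itgam) were above it on all 4. The differences of those 4 ran from -0.02 to 1.30, the highest being Mpeg1, a perforin-like protein of phagocytes (1.30 ± 0.87). Ptprc, above background on both amosite arrays and 1 crocidolite array, differed by -0.23 ± 0.43, lower without overlap. Of 4 endothelial markers Pecam1 and Kdr were above background on all 4 arrays and Cdh5 on none.

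Osmr, the receptor for oncostatin M and so a member of the interleukin-6 receptor family, differed by 1.92 ± 0.44, named after its values were seen. Socs3, the feedback inhibitor of STAT3 signalling, differed by 1.21 ± 0.52 in the insulin signalling list, whose median was 0.04. Cebpd, a C/EBP factor of early adipogenesis and of the acute phase, differed by 0.89 ± 0.26 in the adipocyte identity list, whose median was -0.09. Cebpd stood at 4.39 and 4.41 with crocidolite, 3.45 and 3.58 with amosite and 3.31 and 3.52 with saline. Of 16 measured NF-kB feedback and adhesion genes 13 were above 0, with 11 higher and 1 lower without overlap and a median of 0.25. Among them Bcl3, an atypical I-kappa-B protein, was higher by 1.27 ± 0.41, the pattern receptor Tlr2 by 1.15 ± 0.30 and the leukocyte adhesion molecule Vcam1 by 0.68 ± 0.15. Casp4, a caspase that senses cytosolic lipopolysaccharide, stood at 2.58 on both crocidolite arrays and at 1.56 and 1.58 with amosite (1.01 ± 0.25), in an inflammasome and interleukin-1 family list with a median of 0.11.

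Among 22 measured early response transcription factors 18 were above 0, with 10 higher and 1 lower without overlap and a median of 0.27. Runx1, a factor of blood and mesenchymal development, stood at -0.09 and -0.21 with crocidolite, -2.06 and -2.39 with amosite and -2.26 and -2.39 with saline. Its difference was 2.07 ± 0.37, and its other probe gave 2.27. Fosl1, an AP-1 subunit that follows sustained growth factor signalling, stood at 0.29 and -0.24 with crocidolite, -1.60 and -2.07 with amosite and -1.69 and -2.01 with saline (1.86 ± 0.39). In both factors amosite lay on saline and crocidolite well above.

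Genes of matrix turnover stood mostly higher. Of 19 measured matrix proteases and inhibitors 14 were above 0 and 12 higher without overlap, none lower without overlap, with a median of 0.43 that fell to 0.14 with normexp background correction. The protease inhibitor Timp1 stood at 3.34 and 3.47 with crocidolite, 2.65 and 2.28 with amosite and 2.46 and 2.36 with saline, a difference of 0.94 ± 0.30. Both crocidolite arrays lay above every amosite and saline array. The collagenase- and stromelysin-type proteases Mmp13 and Mmp3 were higher by 1.34 ± 0.44 and 1.29 ± 0.41. Timp3 differed by 1.37 ± 0.25, yet its crocidolite arrays (-3.59 and -2.88) stood near saline (-3.28 and -3.25) and amosite below (-4.50 and -4.70), with 1 amosite array not above background. Mmp2, Mmp14 and Timp2, genes of resting stroma, overlapped between the fibres.

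Spp1 (osteopontin), a matrix protein and cytokine of inflamed fat, stood at 2.77 and 2.88 with crocidolite, 1.47 and 1.33 with amosite and 0.83 and 1.18 with saline (1.43 ± 0.34). Of 24 measured targets of TGF-beta, SRF and YAP 22 were above 0, with 14 higher and 1 lower without overlap and a median of 0.32. Ccn1, a matricellular YAP target, was higher by 1.21 ± 0.41, while its relative Ccn2 differed by 2.05 ± 0.97 with arrays that spread widely in each group. Of 24 collagen and matrix genes 12 were higher without overlap and none lower (median 0.21). Their medians against saline were 0.03 with crocidolite and -0.15 with amosite, so that crocidolite stood on saline and amosite below it. Inhba, a subunit of the growth factor activin A, was higher by 1.08 ± 0.25 and Hgf, hepatocyte growth factor, by 0.74 ± 0.24.

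**Figure D3:**
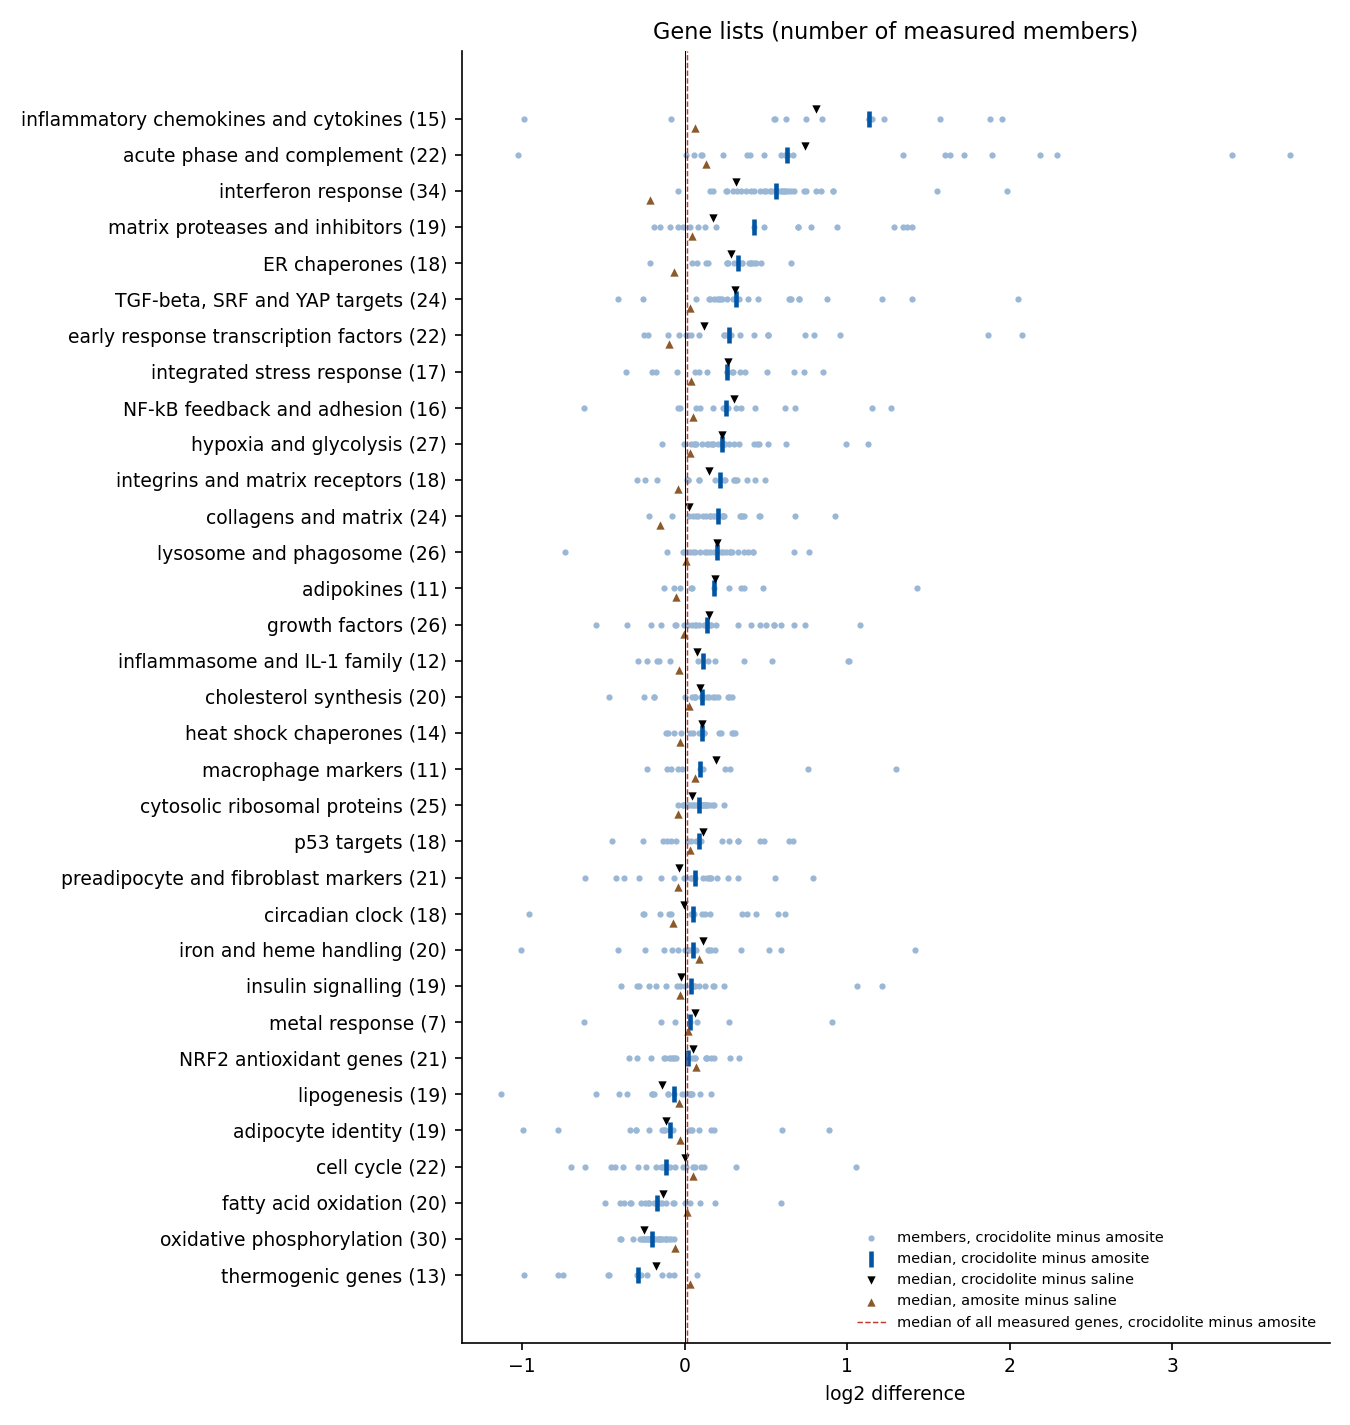
Log2 differences of the measured members of each gene list (points) and their median (bar), crocidolite minus amosite, with the list medians of crocidolite minus saline and of amosite minus saline as triangles. Lists are ordered by their median, from thermogenic genes at -0.28 to chemokines and cytokines at 1.14, and the amosite medians against saline lie between -0.22 and 0.13.

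Interferon-induced genes stood higher with crocidolite almost throughout the list. Of 34 genes, all measured, 33 were above 0 and 24 higher without overlap, none lower without overlap, with a median of 0.56, or 0.37 without amosite replicate 1. Within the arrays numbered 1 the median difference was 0.76 and within those numbered 2 it was 0.38. Measured from the mean of saline, the list's median was 0.39 and 0.32 with crocidolite, -0.40 and 0.07 with amosite, and -0.40 and 0.40 on the saline arrays themselves. Crocidolite was thus above amosite in both numbers, but the saline arrays themselves stood at both ends of that range. At an unadjusted p under 0.05, 3 of the 34 were higher.

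Oas3, an enzyme that makes the oligoadenylates which activate RNase L, stood at -3.63 and -3.68 with crocidolite and was not well above background on any amosite or saline array, which makes its fold over amosite at least 2.17. Among the members above background on all 4 arrays Zbp1 had the largest difference. Zbp1, a sensor of Z-form nucleic acids, stood at 1.35 and 1.59 with crocidolite, -0.30 and 0.14 with amosite and -0.55 and 0.82 with saline (1.55 ± 0.55). The other measured probe of Zbp1 gave 0.74. Rsad2 (viperin), an antiviral enzyme, was higher by 0.84 ± 0.26, with the difference from saline at 0.23 for crocidolite and -0.61 for amosite. Both saline arrays of Rsad2 (-0.46 and -0.15) lay above both amosite arrays (-0.91 and -0.93) and overlapped crocidolite (0.26 and -0.42).

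Among the stress pathways, ER chaperones had the highest median. Of 18 ER chaperones 17 were above 0 and 14 higher without overlap, with a median of 0.33 (0.29 against saline for crocidolite and -0.06 for amosite). Calreticulin (Calr) was higher by 0.66 ± 0.18, the co-chaperone Dnajb9 by 0.47 ± 0.16 (0.29 by its other probe) and Hsp90b1 (GRP94) by 0.41 ± 0.14. Chac1, a glutathione-degrading enzyme of the integrated stress response, stood at 5.32 and 5.31 with crocidolite against 4.62 and 4.66 with amosite (0.67 ± 0.17). The 17 measured integrated stress response genes had a median of 0.26, which was 0.39 within the arrays numbered 1 and 0.13 within those numbered 2, and which ran from 0.01 without crocidolite replicate 1 to 0.58 without crocidolite replicate 2. Of 27 hypoxia and glycolysis genes 19 were higher without overlap and none lower (median 0.23), led by Car9, a carbonic anhydrase of the cell surface, at 1.13 ± 0.62 and Ndrg1 at 0.99 ± 0.20. Of 26 lysosome and phagosome genes 17 were higher without overlap and none lower (median 0.20), among them the protease cathepsin C (Ctsc) at 0.76 ± 0.18.

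By contrast the antioxidant genes governed by NRF2 had a median of 0.02, with 6 of 21 higher and 4 lower without overlap and differences from -0.34 (Gstm1, a glutathione transferase) to 0.33. Iron and heme genes had a median of 0.05, with 4 of 20 higher and 4 lower without overlap. Those counts are near the shares of all measured genes, 21.4% higher and 18.1% lower. The transferrin receptor Tfrc, which brings iron into the cell and whose message is stabilised when iron is scarce, stood at 1.05 and 1.54 with crocidolite, 2.03 and 2.57 with amosite and 1.94 and 2.42 with saline. Its difference was -1.01 ± 0.30, with both crocidolite arrays below every amosite and saline array. The 2 other measured probes of Tfrc gave -0.85 and -0.52. The iron importer Slc11a2, the iron exporter ferroportin (Slc40a1) and the ferritin light chain Ftl1 overlapped between the fibres. Heme oxygenase Hmox1 stood at 1.90 and 4.34 with crocidolite and 0.55 and 2.85 with amosite (1.42 ± 1.43), where the arrays numbered 2 exceeded those numbered 1 in every group by more than the fibres differed. Within the arrays numbered 1 Hmox1 differed by 1.34 and within those numbered 2 by 1.49, and with the array number as a block in limma the SE was 0.14 and the adjusted p 0.654. The other probe of Hmox1 differed by 0.93. The metallothionein Mt2 was higher by 0.90 ± 0.28 and Mt1 by 0.27 ± 0.14. Both are in the metal response list, whose 7 measured genes had a median of 0.03, with 3 higher and 2 lower without overlap. Slc39a4 of that list differed by -0.62 ± 0.27, lower without overlap.

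On the lower side stood oxidative phosphorylation. All 30 measured components of the respiratory chain and ATP synthase stood lower with crocidolite, 29 without overlap, but by little, with a median of -0.20 and a range from -0.40 to -0.06. None reached an unadjusted p of 0.05. The median was -0.18 within the arrays numbered 1 and -0.20 within those numbered 2, and all 30 were below 0 in both. Measured from the mean of saline the median was -0.28 and -0.22 with crocidolite, -0.10 and -0.03 with amosite, -0.09 and -0.33 with chrysotile and -0.18 and 0.18 on the saline arrays. The 2 saline arrays thus lay further apart in this list than the 2 fibres. Centring on the median of each array, which moves the median of all measured genes from 0.01 to 0.14, left 6 of the 30 above 0 and a median of -0.08. Uqcrc1, a core subunit of complex III, stood at 4.77 and 4.75 with crocidolite and 5.06 and 5.26 with amosite (-0.40 ± 0.18).

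**Figure D4:**
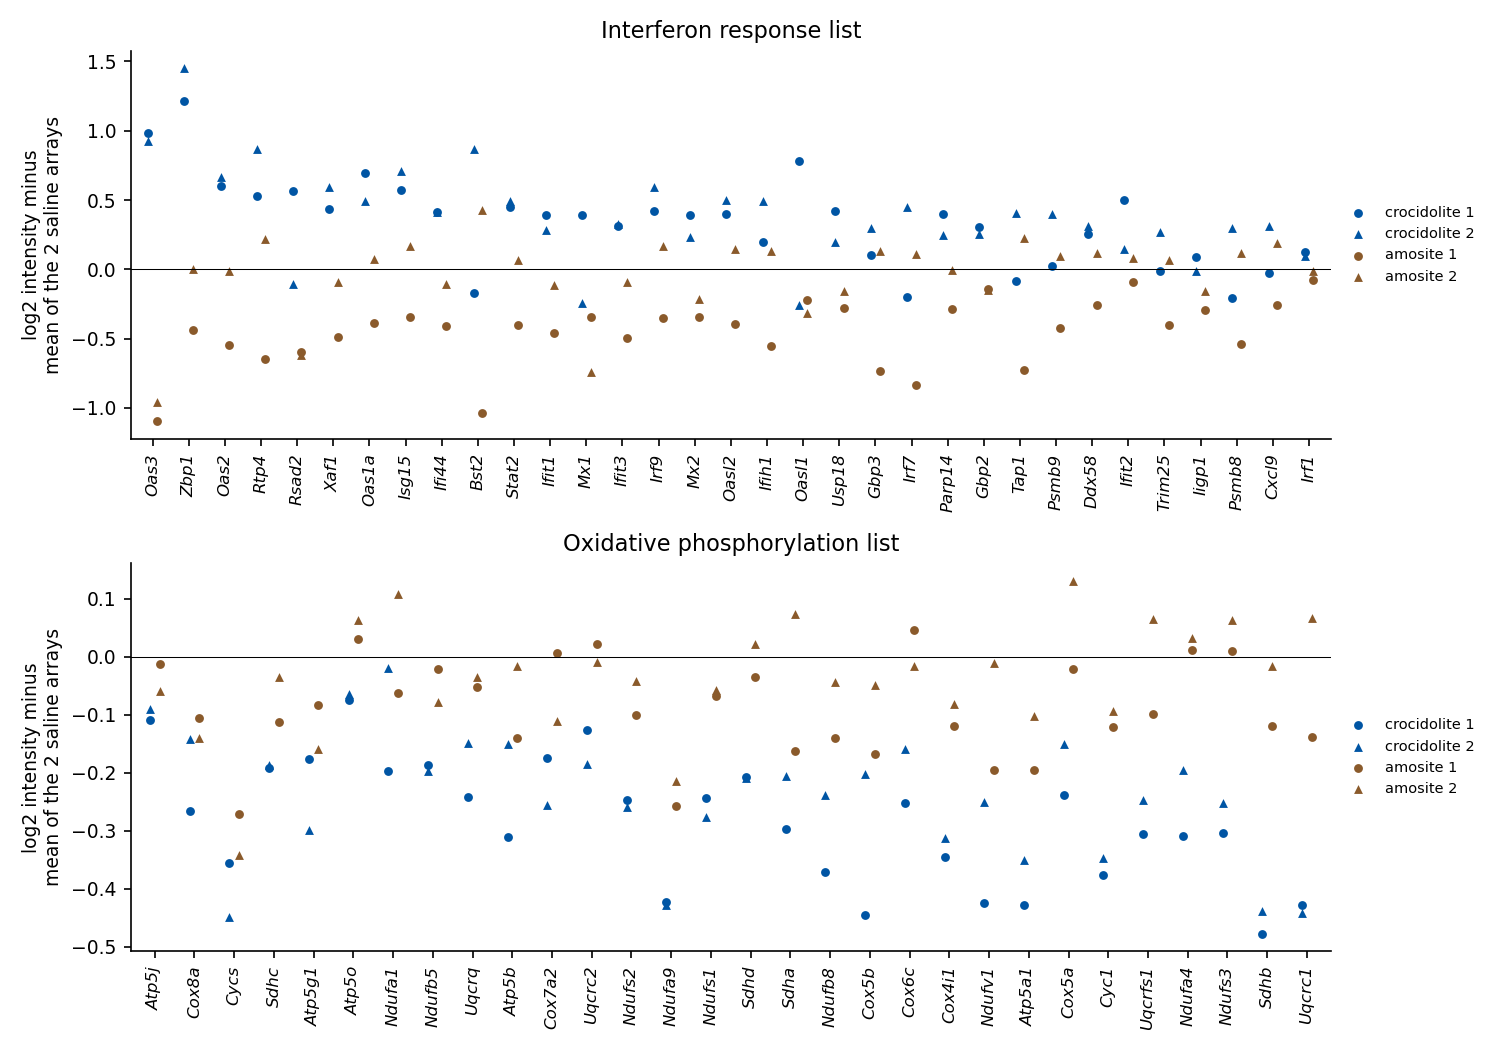
Log2 intensity of 33 measured genes of the interferon list (upper panel) and all 30 of the oxidative phosphorylation list (lower panel) minus the mean of the 2 saline arrays, drawn for the 2 crocidolite and the 2 amosite arrays. By group mean the 33 interferon genes drawn lie higher with crocidolite; the 1 other measured gene of that list, the only one below 0, is not drawn. By group mean respiratory chain genes lie lower in 30 of 30.

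Fatty acid oxidation genes stood lower in 15 of 20, with 12 lower and 2 higher without overlap and a median of -0.17. Centring on the median of each array put 8 of the 20 above 0 and the median at -0.05. The beta-oxidation enzymes Eci1 and Acadm differed by -0.49 ± 0.24 and -0.34 ± 0.21, whereas Cpt1a, which admits fatty acids to the mitochondrion, was higher by 0.59 ± 0.22. Of 13 measured thermogenic genes 12 were below 0 and 5 lower without overlap (median -0.28), and Ucp1 was not measured. That median was -0.16 under median centring, -0.12 without amosite replicate 2 and -0.55 without amosite replicate 1. Cidea, a lipid droplet protein of brown and beige fat, stood at 1.80 and 1.78 with crocidolite, 2.47 and 2.67 with amosite and 2.24 and 2.94 with saline (-0.78 ± 0.29). The adrenergic receptor Adrb1 differed by -0.75 ± 0.19.

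Lipid synthesis as a list had a median near 0 (-0.06), with 6 of 19 measured members lower and 1 higher without overlap. Thrsp, a nuclear protein that follows lipogenic drive, stood at 5.24 and 5.48 with crocidolite, 6.45 and 6.53 with amosite and 6.35 and 6.78 with saline (-1.13 ± 0.38). Acacb, the acetyl-CoA carboxylase of the mitochondrial surface, and the fatty acid elongase Elovl6 differed by -0.55 ± 0.20 and -0.40 ± 0.17. The 19 measured adipocyte identity genes had a median of -0.09, with 4 higher and 4 lower without overlap, near the shares of all measured genes (21.4% and 18.1%). The medians of adipocyte identity and lipid synthesis turned positive under median centring and without crocidolite replicate 1 or amosite replicate 2, so they have no settled direction. Plin4, a coat protein of lipid droplets, was higher by 0.60 ± 0.23. Hlf, a clock output factor, differed by -0.96 ± 0.18, at -3.31 and -3.49 with crocidolite and -2.49 and -2.40 with amosite. Cdc6, which licenses DNA replication, was higher by 1.06 ± 0.23 while the proliferation marker Mki67 differed by -0.70 ± 0.28, in a cell cycle list with a median of -0.11 that turned to 0.01 under median centring.

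Several other lists had medians from 0.04 to 0.21, where that of all measured genes was 0.01. Integrins and matrix receptors had 8 of 18 higher and none lower without overlap (median 0.21), growth factors 11 of 26 higher and 3 lower (0.14), and adipokines 5 of 11 higher and 1 lower (0.18). Cholesterol synthesis, with 7 of 20 higher and 1 lower without overlap, had a median of 0.10, heat shock chaperones 0.10, p53 targets 0.09, cytosolic ribosomal proteins 0.09, circadian genes 0.05 and insulin signalling 0.04.

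The 10 largest lower differences with an unadjusted p under 0.05 rested on dim probes. Ccdc62, Pou1f1, A630076J17Rik, Mme, Perm1, Robo1, Jchain, Mtnr1b and Tdpoz2 were above background on both amosite arrays and on neither crocidolite array, and Esyt3 on 1 crocidolite array. The bounds ran from at least 1.15-fold lower for Ccdc62 to at least 2.15-fold lower for A630076J17Rik. Mme, the membrane protease neprilysin, was at least 2.07-fold lower, and Perm1, a regulator of muscle mitochondria, at least 1.65-fold. Of the 94 genes at least 2-fold lower, 13 are olfactory or vomeronasal receptors, against 3 of the 129 higher genes and 235 (1.56%) of all measured genes.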

How the data were processed

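Total RNA was measured in 1 colour (Cy3) on Agilent mouse gene expression arrays. The authors' deposited values are linear intensity per spot, background-subtracted by Feature Extraction 10.7.1.1 per the file headers (10.7 per the submitters' processing notes), with no scaling between arrays. From these, log2 intensity minus the 75th percentile of each array was computed. Control spots and the 99 to 183 outlier spots of each array were removed, repeated spots averaged and 9 probes without a value on some array dropped. Probe positions are on mm9; symbols were brought up to date through RefSeq transcripts for 26861 probes and through symbols or synonyms for 4374, and 24437 stayed unnamed.

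A single limma model (version 3.58.1, R 4.3.3) held 1 coefficient per group for all 8 arrays, with Benjamini-Hochberg adjustment over 55672 probes, two-sided. A run on simulated arrays with known changes checked the size of the estimated differences. Its errors were drawn independently, without the pairing described below, so it does not bear on the p-values here. Gene lists were described by counts and medians without a set test. The members and lists were chosen with earlier results of these data known. Named genes are the 10 largest differences in each direction among genes with an unadjusted p under 0.05 and no overlap, up to 3 members of each list by p, and a panel of 30 genes; others are said to be named after their values were seen or appear as list members. Same-numbered arrays deviated together (correlations 0.25 to 0.46 over 6 pairs of groups), which was taken as pairing, and the number was also the slide column. The SEs printed after each ± do not use this pairing. With the array number as a block, SEs narrowed for some genes and widened for others. They were 0.26 instead of 0.73 for Cfb, 0.78 instead of 1.38 for Hp and 0.57 instead of 0.53 for Slpi. The number of arrays limits the precision. Alternatives changed scaling, background correction, filter, prior, block and samples. Some items are not reported here.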

Additional observations from a re-analysis of the deposited data

Results flagged for a closer look

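In 6 named genes above background on the arrays of crocidolite, amosite and saline, both crocidolite arrays lay on 1 side of both saline arrays and both amosite arrays on the other side. Opposite sides of saline were not tested as such, and no adjusted p passed. The share of all measured genes ordered in this way was not counted, so the number of such genes is not a result. Above saline with crocidolite and below it with amosite stood Chil1, with a difference between the amphiboles of 2.96, Plin4 (0.60), Cpt1a (0.59), the laminin chain Lamc1 (0.46) and the growth factor Pdgfa (0.41). Below saline with crocidolite and above it with amosite stood Adrb1 (-0.75). The distance of amosite from saline was small beside its error in most of them. Amosite minus saline, ± SE from the same fit, was -0.42 ± 0.78 for Chil1, -0.17 ± 0.23 for Plin4 and -0.11 ± 0.22 for Cpt1a. For Lamc1 it was -0.21 ± 0.16, for Pdgfa -0.11 ± 0.12 and for Adrb1 0.36 ± 0.19. In 5 further genes the signals were ordered in the same way, but neither saline array was above background, so no side of saline was measured. Of these Tfpi2 (2.46) and Oas3 (1.98) were not well above background with amosite either, and Ccdc62 (-2.40), Perm1 (-1.95) and Jchain (-1.90) were not with crocidolite. In each of those 5 the mean of 1 amphibole was not well above background, so only a bound on the fold was measured. Under some alternative the differences were as small as 0.29 (Tfpi2), 0.36 (Oas3), -0.34 (Ccdc62), -0.40 (Perm1) and -0.40 (Jchain).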

How the results depend on the processing

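Probe calls stayed at 0 in every alternative run with all arrays of crocidolite and amosite, except those added after the data were seen that left out chrysotile with a trended and robust prior (2 calls, or 9 with 1 probe per gene). Without 1 array at a time the count ran from 0 to 17. The replicate block, a fit with the array number as a factor, gave 0 calls, and its count at an unadjusted p under 0.05 was 3425 instead of 2119; it changed no other call. The 2-fold counts (223 genes, 129 higher and 94 lower) depended on dim probes. They were 64, 61 and 3 under normexp background correction, and 121 in all with 27 lower over genes above background on all arrays. With all 4 crocidolite and amosite arrays above background they were 127 in all with 29 lower, and over all non-control probes 2126, 617 and 1509. Lower genes numbered 54 under quantile normalization and 59 under median centring. Without 1 array at a time the totals ran from 320 to 375, the higher genes from 170 to 195 and the lower genes from 133 to 196, since the overlap rule then holds for fewer arrays; the lowest lower count came without amosite replicate 1 and the highest total without crocidolite replicate 2. None of the 100 genes followed changed direction under any alternative, and 8 of them were called under the settings added after the data were seen. The lack of reversals was largely fixed in advance. Changes of prior, filter or block, and leaving out saline or chrysotile, leave a gene's difference as it was. A gene without overlap cannot change direction when 1 array is left out. Some other genes that the naming rule took did change direction under some alternative. These were Hsp90aa1, Rps6, Nqo1, Vegfa, Scd1, Adipoq, Lep, Pparg and Fabp4, which are given no value and are not among the 100. The 100 thus leave out every named gene that changed direction. The median was 0.15 under quantile normalization for hypoxia and glycolysis, 0.18 without crocidolite replicate 1 for the TGF-beta, SRF and YAP targets and 0.13 without amosite replicate 1 for lysosome and phagosome genes. The list medians near 0 changed sign under some alternative for adipocyte identity, lipid synthesis, cell cycle, NRF2, heat shock, circadian, insulin signalling, ribosomal, preadipocyte and fibroblast, macrophage, and inflammasome and interleukin-1 family genes, and for all measured genes together; the cause was not tested.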

Other observations

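Of the 98 genes at least 2-fold higher with crocidolite and above background on all 4 arrays, 63 were on none of the gene lists, and the genes named here were chosen after their values were seen. Lrg1, a secreted glycoprotein of the acute phase, stood at 4.68 and 5.63 with crocidolite, 2.53 and 3.42 with amosite and 2.53 and 3.51 with saline (2.18 ± 0.86). Wfdc21, a small secreted protein of the same domain family as Slpi, differed by 2.17 ± 0.77 and the chemokines Ccl9 and Ccl6 by 2.15 ± 0.80 and 1.65 ± 0.42. Ackr3, a scavenger receptor for Cxcl12, differed by 2.10 ± 0.70, the cannabinoid receptor Cnr1 by 1.99 ± 0.75 and Trem2, a lipid-sensing receptor best known from macrophages, by 1.76 ± 0.50. Clu (clusterin), an extracellular chaperone, stood at 4.74 and 4.50 with crocidolite and 3.29 and 2.82 with amosite (1.57 ± 0.35).

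Of the 29 genes at least 2-fold lower with crocidolite and above background on all 4 arrays, 26 were on none of the lists. Those named here were chosen after their values were seen. Myoglobin (Mb) stood at 2.16 and 1.78 with crocidolite, 3.32 and 2.70 with amosite and 2.69 and 2.60 with saline (-1.03 ± 0.43). The troponin Tnnc2 stood at -1.30 and -0.76 with crocidolite and -0.34 and 0.29 with amosite, and Fndc5, the precursor of irisin, differed by -1.04 ± 0.47. Coq8a, a kinase-like protein needed for coenzyme Q synthesis, differed by -1.04 ± 0.30. The amylase genes Amy1 and Amy2a5, near-identical copies that the probes may not separate, differed by -1.06 ± 0.47 and -1.05 ± 0.54. Of 4 muscle markers Acta1 and Tnnt2 were above background on all 4 arrays and stood the other way, higher with crocidolite without overlap by 0.88 ± 0.46 and 0.79 ± 0.22, and Myh4 and Ckm were above background on none of the 4 arrays.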
